A study of Oryza sativa with 10 samples.

Results

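This report concerns the rice (Oryza sativa) line OE78-8, labelled as overexpressing the gene MADS78 and here called OE78, and how its seed RNA differed from that of wild type (WT). The 4 libraries compared, of 10 in the series, are OE78 at 48 and 72 hours after fertilization (HAF) and WT at the same 2 times, chosen by their labels for genotype and time. All 10 were used to estimate the spread. The other 6 come from OE79-3, labelled as overexpressing MADS79 (OE79), from Cr78_8.22.2, edited by CRISPR at MADS78 (CR78), and from Cr79_11.25.3, edited by CRISPR at MADS79 (CR79). They serve here to show where a difference from WT was also present in other lines. Every sample was seed with the husk taken off. Each manipulation is represented by 1 line, and no source used here gives the promoter driving the overexpressed gene or the number of seeds and plants in a sample.

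MADS78 and MADS79 belong to the type I MADS-box transcription factors, a group of DNA-binding proteins active mostly in gametophytes and young seeds. In cereals the endosperm first divides as free nuclei in a shared cytoplasm, then forms cell walls around them and begins to store starch and protein. Both genes are known in rice for their part in this early phase, which the sampled times span.

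Depth was 15990871 and 15801882 counts in OE78 at 48 and 72 HAF and 16861065 and 18040600 in WT, and 12267337 to 16702537 in the other lines. Levels are given as CPM, the usual depth-scaled counts (reads of a gene relative to the scaled library total), which are comparable between libraries for 1 gene but not between genes of unequal length. Seed tissue markers were present: SSIIa (LOC_Os06g12450), a soluble starch synthase of the endosperm, had 2.81 and 69.2 CPM in OE78 at 48 and 72 HAF, against 5.40 and 105 CPM in WT. Cab1R (LOC_Os09g17740), a light-harvesting gene expressed in the green pericarp, had 1289 and 2596 CPM in OE78, against 1675 and 2093 CPM in WT. A change in the share of a tissue and a change in RNA per cell cannot be told apart in such samples. With 1 library for each genotype and time, the p-values set a difference against a spread taken from how far the 5 genotypes depart from 1 shared time effect. They cannot separate MADS78 from other differences between the line and WT.

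The targeted gene was read first. MADS78 (LOC_Os09g02830) had 6 reads in the OE78 library at 48 HAF and 2116 reads, or 138 CPM, in the OE78 library at 72 HAF, against 3 and 0 reads in WT. The other lines had 0 to 6 reads. At 72 HAF the OE78 level was at least 829-fold higher than in WT, with 3 counts set for the WT library, and it ranked 1473 among the genes of that library by CPM, which is not scaled for gene length. Within OE78 it was 402-fold higher at 72 than at 48 HAF (exact 95% interval 184.5 to 1097, which covers counting error only). The library labelled OE78 at 48 HAF therefore showed no excess of MADS78 reads over WT beyond counting, and a transgene without the counted region would not show in these counts. MADS79 (LOC_Os01g74440), the related gene, had 22 and 0 reads in OE78 and 33 and 20 in WT (edgeR log2 fold change -2.10, adjusted p = 0.999).

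Over both times, 36 genes differed between OE78 and WT by edgeR's quasi-likelihood test with Benjamini-Hochberg adjustment at a threshold of 0.05, which is 0.142% of the 25354 tested genes. Of these, 34 were higher in OE78 (0.134%) and 2 were lower (0.00789%). An unadjusted p under 0.05 was found for 1223 genes, against 1268 expected by chance. The higher genes were mostly ones with few or no reads in WT: 12 had none in either WT library, 5 had 1 to 3 over both, and 25 stood below 1 CPM in both. In OE78 they stood between 1.96 and 222 CPM, with 17 of the 34 at 10 CPM or more at both times. Unlike MADS78 itself, 32 of the 34 had OE78 levels within 2-fold of each other at the 2 times, and 26 were higher at 48 than at 72 HAF. The fit takes the 2 times of a line as its replicates, so it disfavours a gene that changes over time in 1 line alone. The count of steady genes is thus largely set by the choice of genes, and the same count over all tested genes was not made. MADS78 was not among the tested genes. The call depends on single libraries: 5 genes passed without either WT library, 6 without OE78 at 48 HAF, 14 without OE78 at 72 HAF, and 16 and 15 without OE79 at 48 and 72 HAF. The 4 genes that passed in each of the 10 runs that left out 1 library were LOC_Os03g02470, LOC_Os03g18779, LOC_Os01g40480 and LOC_Os06g44800, named after their values were seen.

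**Figure D1:**
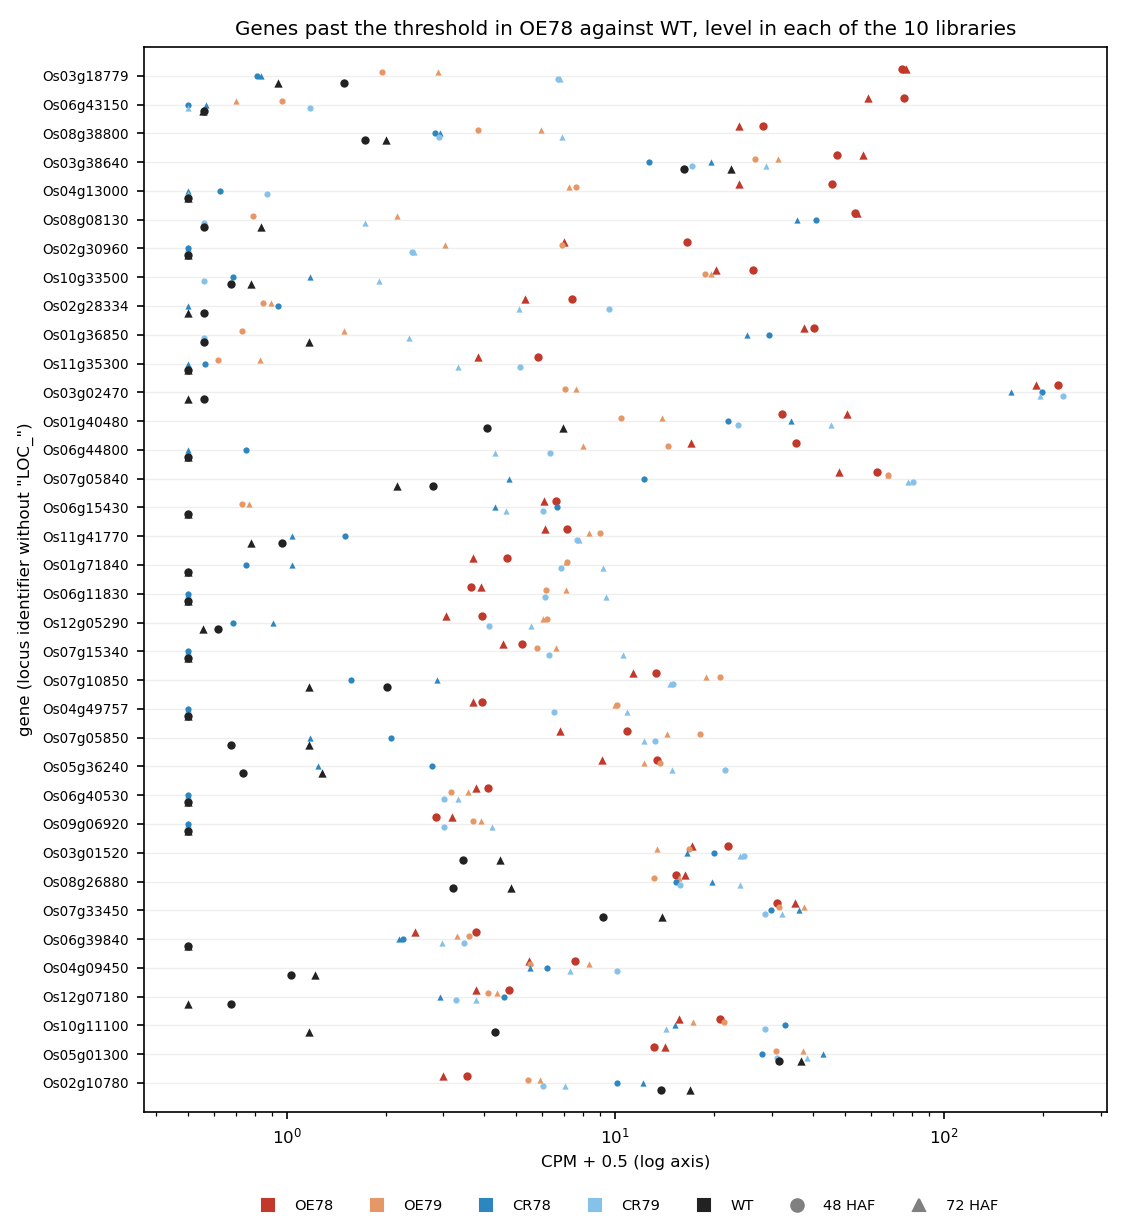
Level of each of the 36 genes that differed between OE78 and WT, as CPM + 0.5 on a log axis, with 1 point for each of the 10 libraries (colour for genotype, circles for 48 HAF, triangles for 72 HAF). The OE78 points lie to the right of both WT points in 34 genes and to their left in the 2 lowest rows, and in most rows 1 or more of the other lines stand with OE78.

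To see whether these differences set OE78 apart, each of the other lines was counted as standing with OE78 where both of its libraries were nearer to OE78 than to WT of the same time in log2(CPM + 0.5), a grouping chosen after the values were seen. OE78 stood alone in 5 of the 36 genes. In 7 genes 1 other line stood with it, in 17 genes 2 lines, and in 7 genes all 3, so that WT was the genotype standing apart in those. The most frequent pattern, in 14 genes, was OE79 and CR79, without CR78, standing with OE78. A contrast of OE78 with the mean of the 3 other lines, from the same fit, was past the threshold for 12 of the 36. WT is not one of the groups it compares, but the WT libraries enter its time effect and spread. It also uses the same OE78 libraries that chose the 36 genes. A gene can pass it while another line stands with OE78. LOC_Os03g02470 passed with 230 and 195 CPM in CR79, against 222 and 190 CPM in OE78, while OE79 had 6.51 and 7.12 CPM.

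The 5 genes in which OE78 stood alone include 4 that were higher and 1 that was lower. Their values in the other lines chose them, so those values are given as a description. LOC_Os06g43150 had 75.3 and 58.4 CPM in OE78 at 48 and 72 HAF, against 0.0587 and 0.0556 CPM in WT, with at most 0.677 CPM in any other line. Its reads over both times were 2210 in OE78 and 2 in WT, a ratio of 1181 scaled for depth (exact 95% interval 326.5 to 9756), and its adjusted p was 0.00128 in edgeR. The next, LOC_Os03g18779, had 74.0 and 76.3 CPM in OE78, against 0.998 and 0.445 CPM in WT (edgeR log2 fold change 6.70, SE 0.346, adjusted p = 0.000341). The other lines ran from 0.314 to 6.28 CPM for it, highest in CR79, and every one of these libraries was far below OE78. LOC_Os08g38800 had 27.6 and 23.3 CPM in OE78, against 1.23 and 1.5 CPM in WT, and 2.33 to 6.37 CPM in the other lines (edgeR log2 fold change 4.25, SE 0.413, adjusted p = 0.00944).

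Smaller differences made up the rest of that group. LOC_Os03g38640 had 46.8 and 56.1 CPM in OE78, against 15.7 and 21.9 CPM in WT (edgeR log2 fold change 1.47, SE 0.169, adjusted p = 0.0220), and OE79 stood nearest to OE78 with 26.2 and 30.8 CPM. LOC_Os05g01300 was the lower one, with 12.6 and 13.7 CPM in OE78, against 31.0 and 36.2 CPM in WT and 27.5 to 42.4 CPM in the other lines (edgeR log2 fold change -1.35, SE 0.155, adjusted p = 0.0220). Its 2 OE78 libraries were below all 8 others. The second lower gene, LOC_Os02g10780, had 3.03 and 2.48 CPM in OE78, against 13.3 and 16.3 CPM in WT (edgeR log2 fold change -2.41, SE 0.238, adjusted p = 0.00944). There the other lines lay between, at 4.94 to 11.7 CPM, and CR79 at 72 HAF, with 6.54 CPM, was about midway between OE78 and WT on a log scale. None of the tested loci within 2 places of the 5 genes in identifier order was past the threshold. Next to LOC_Os03g38640, LOC_Os03g38650 had a log2 fold change of 1.44 (edgeR adjusted p = 0.864), and the next tested locus on the other side, LOC_Os03g38610, had 1.06 (edgeR adjusted p = 0.999).

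In 7 genes a single other line stood with OE78. LOC_Os08g08130 had 53.2 and 53.9 CPM in OE78, against 0.0587 and 0.333 CPM in WT, and CR78 had 40.2 and 35.3 CPM. LOC_Os01g36850 had 39.8 and 37.0 CPM in OE78, against 0.0587 and 0.667 CPM in WT, and CR78 had 28.9 and 24.7 CPM. OE79 and CR79 were at or below 1.86 CPM for both genes, so CR78, the line edited at MADS78, stood with the line labelled as overexpressing it. OE79 stood with OE78 for LOC_Os10g33500, with 25.7 and 19.8 CPM in OE78, against 0.176 and 0.278 CPM in WT, and 18.2 and 19.0 CPM in OE79. LOC_Os04g13000 and LOC_Os02g30960 had no read in WT and were at least 408-fold and 135-fold higher in OE78, with 3 counts set for both WT libraries together. LOC_Os04g13000 had 45.1 and 23.4 CPM in OE78, against 7.09 and 6.72 CPM in OE79. CR79 stood with OE78 for LOC_Os02g28334 and LOC_Os11g35300, which had 3.33 to 6.87 CPM in OE78, and at most 0.0587 CPM in WT.

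Where 2 lines stood with OE78, the levels were often close to equal among them. LOC_Os03g02470 had the highest OE78 value of the 34 in CPM, with 222 and 190 CPM in OE78, against 0.0587 and 0 CPM in WT (edgeR adjusted p = 4.00e-06). CR78 and CR79 had 159 to 230 CPM of it and OE79 had 6.51 and 7.12 CPM. LOC_Os01g40480 had 31.7 and 50.4 CPM in OE78, against 3.58 and 6.45 CPM in WT (edgeR log2 fold change 3.05, SE 0.176, adjusted p = 0.000564), with 9.89 to 44.9 CPM in the other lines. LOC_Os06g15430 had 6.13 and 5.55 CPM in OE78 and no read in WT, at least 68.4-fold higher in OE78, and CR78 and CR79 stood with it.

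Of the 14 genes shared by OE78, OE79 and CR79, LOC_Os07g05840 had the most OE78 reads. It had 62.1 and 47.3 CPM there, against 2.29 and 1.67 CPM in WT, while CR78 had 11.7 and 4.27 CPM (edgeR log2 fold change 4.79, SE 0.356, adjusted p = 0.00228). Its neighbour in identifier order, LOC_Os07g05850, had 10.4 and 6.27 CPM in OE78, against 0.176 and 0.667 CPM in WT, and these were the only adjacent pair among the 36. LOC_Os06g44800 had 35.04 and 16.5 CPM in OE78 and no read in WT, at least 308-fold higher in OE78, and was lower in OE79 and CR79, at 3.80 to 14.01 CPM. LOC_Os11g41770 had 6.64 and 5.62 CPM in OE78, against 0.470 and 0.278 CPM in WT, and was somewhat higher in OE79 and CR79, at 7.14 to 8.49 CPM. Besides LOC_Os02g10780, described above, the others with this pattern were LOC_Os01g71840, LOC_Os06g11830, LOC_Os12g05290, LOC_Os07g15340, LOC_Os07g10850, LOC_Os04g49757, LOC_Os05g36240, LOC_Os06g40530 and LOC_Os09g06920, all higher in OE78 than in WT.

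In the 7 genes that separated all 4 lines from WT, the OE78 level was close to that of the other lines. LOC_Os07g33450 had 30.6 and 34.8 CPM in OE78, against 8.69 and 13.4 CPM in WT, and 28.0 to 37.1 CPM in the other lines (edgeR log2 fold change 1.59, SE 0.155, adjusted p = 0.00944). LOC_Os03g01520 had 21.5 and 16.7 CPM in OE78, against 2.94 and 3.95 CPM in WT, and 12.9 to 24.2 CPM elsewhere. LOC_Os08g26880 had 14.8 and 15.8 CPM in OE78, against 2.70 and 4.33 CPM in WT, and 12.6 to 23.4 CPM in the other lines. The remaining 4 were LOC_Os06g39840, LOC_Os04g09450, LOC_Os12g07180 and LOC_Os10g11100. Their log2 differences between OE78 and the mean of the other lines lay between -0.19 and 0.17, a closeness that the grouping itself selects.

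The 36 genes lay on all 12 chromosomes by their identifiers, with at most 6 on chromosome 6 and 5 on chromosome 7. Just inside the threshold were LOC_Os10g11100 and LOC_Os09g06920, with adjusted p of 0.0418 and 0.0445 in edgeR. Just outside were LOC_Os07g48170, LOC_Os02g54960 and LOC_Os01g36064, each with an edgeR adjusted p of 0.0512, and LOC_Os08g42890 with 0.0590. LOC_Os07g48170 had 4.01 and 5.75 CPM in OE78, against 10.3 and 17.2 CPM in WT, and 9.17 to 17.5 CPM in the other lines.

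The contrast of OE78 with the mean of OE79, CR78 and CR79 gave 27 genes, 0.106% of those tested, of which 13 were higher in OE78 (0.0513%) and 14 lower (0.0552%). Of the 13, 11 were also higher against WT. The other 2, LOC_Os06g46740 and LOC_Os03g51350, did not pass against WT: LOC_Os06g46740 had 28.3 and 3.59 CPM in OE78, 0.442 to 6.86 CPM in the other lines and 13.4 and 1.56 CPM in WT. LOC_Os03g51350 had 20.5 and 2.09 CPM in OE78, 0.0884 to 7.68 CPM in the other lines and 8.87 and 0.834 CPM in WT. The count fell to 3 without the OE78 library at 72 HAF and to 9 without that at 48 HAF. It was 12 without CR78 at 72 HAF, 15 without OE79 at 72 HAF, 16 without either WT library and 17 without CR79 at 72 HAF.

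Among the 14 genes lower in OE78 than in the other lines, 9 were late genes, with every library at 48 HAF below 2 CPM. Their difference thus rests on the 72 HAF libraries. The share of such genes among all tested genes was not counted. Where the 48 HAF libraries hold no or almost no reads, the model fits the 72 HAF libraries almost exactly. Such a gene has little spread of its own, and its p-value leans on the spread shared over genes. In all 9 the OE78 library at 72 HAF was the lowest of the 5. The contrast chose genes low in OE78 beside the other lines, so its place below those lines largely follows from that choice. LOC_Os02g12310 had 0.718 CPM there in OE78, against 10.8 CPM in OE79, 74.2 CPM in CR78, 151 CPM in CR79 and 6.89 CPM in WT (edgeR log2 fold change -6.07 against the other lines, adjusted p = 0.00282). LOC_Os02g54960 had 2.09 CPM in OE78, against 16.6 CPM in OE79, 73.6 CPM in CR78, 77.3 CPM in CR79 and 16.2 CPM in WT. LOC_Os08g42890 had 0.588 CPM in OE78, against 4.92 CPM in OE79, 26.8 CPM in CR78, 34.4 CPM in CR79 and 5.39 CPM in WT. WT stood close to OE79 and far below both CRISPR lines in these 3 genes, with OE78 lower still.

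In the other late genes, LOC_Os06g21900, LOC_Os06g16050, LOC_Os07g41290, LOC_Os03g40440, LOC_Os11g31330 and LOC_Os04g49720, OE78 was again the lowest and the CRISPR lines were the highest. LOC_Os07g41290 had 6.47 CPM in OE78 at 72 HAF, against 45.6 CPM in OE79, 183 CPM in CR78, 164 CPM in CR79 and 37.8 CPM in WT. None of the 9 passed against WT, where their smallest adjusted p was 0.0512 in edgeR. Without the OE78 library at 72 HAF, LOC_Os03g40440 and LOC_Os04g49720 had log2 differences of 0.15 and 1.37 from the other lines, on the opposite side, where OE78 keeps 0 and 1 reads of them. Among the other 5 lower genes, LOC_Os01g15740 had at most 0.196 CPM in OE78, against 38.7 to 78.3 CPM in the other lines and at most 0.445 CPM in WT. LOC_Os12g24050 and LOC_Os01g35330 were also low in both OE78 and WT, but were not high in every other line. LOC_Os12g24050 had 0.923 and 0.177 CPM in CR79, against 18.2 to 33.7 CPM in OE79 and CR78. LOC_Os01g35330 had 2.38 and 3.46 CPM in OE79, against 82.6 to 173 CPM in the CRISPR lines. LOC_Os05g01300 and LOC_Os07g48170 are described above.

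**Figure D2:**
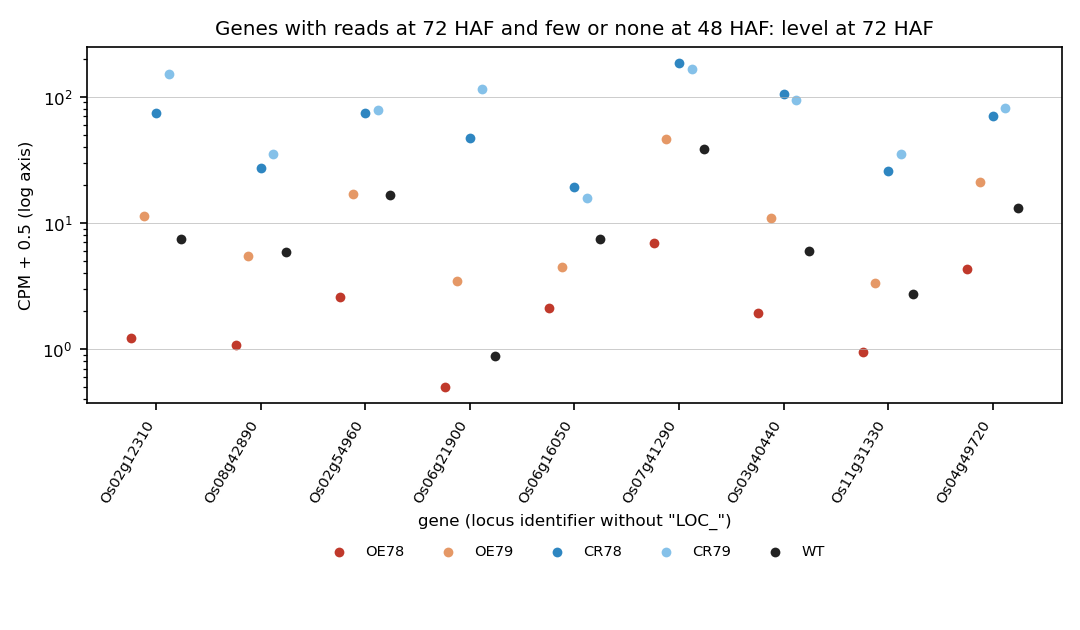
Level at 72 HAF, as CPM + 0.5 on a log axis, of the 9 genes lower in OE78 than in the other 3 lines whose 48 HAF libraries were all below 2 CPM, with 1 point for each genotype. OE78 is the lowest point in every column and the CRISPR lines are the highest, with OE79 and WT between them.

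MADS78 reads were raised at 72 HAF and not at 48 HAF, so the change from 48 to 72 HAF in OE78 was tested against that of the other 4 genotypes. No gene passed in edgeR (0% of 25354), with 1278 at an unadjusted p under 0.05, and DESeq2 called 2 genes, LOC_Os01g43844 and LOC_Os07g39020. The filter on low counts had removed MADS78, which had more than a few reads in 1 library alone. Without that filter MADS78 was the 1 gene called, with a log2 difference of 11.34 in its time change. That call restates the reads which prompted the test and rests on 1 OE78 library. Without OE79 at 48 HAF 13 genes passed and without OE79 at 72 HAF 12 did. They include the jasmonate pathway repressors JAZ9 (LOC_Os03g08310) and JAZ13 (LOC_Os10g25230), with log2 differences of 4.87 and 4.13, and the heat stress transcription factor HSFA2A (LOC_Os03g53340), with 9.50. In either run the remaining OE79 library is fitted by its own genotype term, so OE79 drops out of the time effect. The 2 runs are thus nearly the same test, and their like values are not 2 separate results.

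Within a single time OE78 and WT have 1 library each, so the following are values with no test. At 48 HAF, among 17807 genes that reached 5 CPM in 1 or both libraries, 72 were higher in OE78 by 4-fold or more (0.404%) and 145 were lower (0.814%), while at 8-fold 31 were higher and 24 lower. At 72 HAF, of 17729 genes, 63 were higher by 4-fold (0.355%) and 28 lower (0.158%), and at 8-fold 30 and 5. Of the genes higher by 4-fold, 28 were so at both times. Of those lower, 4 were so at both times, and the 145 genes lower at 48 HAF had a median log2 ratio of 0.16 at 72 HAF. The OE78 library was the lowest of the 5 at 48 HAF in 127 of the 145, and the WT library was the highest in 116. Over all 25354 tested genes these counts were 4853 and 4616. The 145 were chosen for OE78 being below WT in these libraries, so both counts are largely set by that choice. For most genes the libraries were close, with an interquartile range of log2 ratios from -0.19 to 0.17 at 48 HAF and from -0.22 to 0.21 at 72 HAF.

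**Figure D3:**
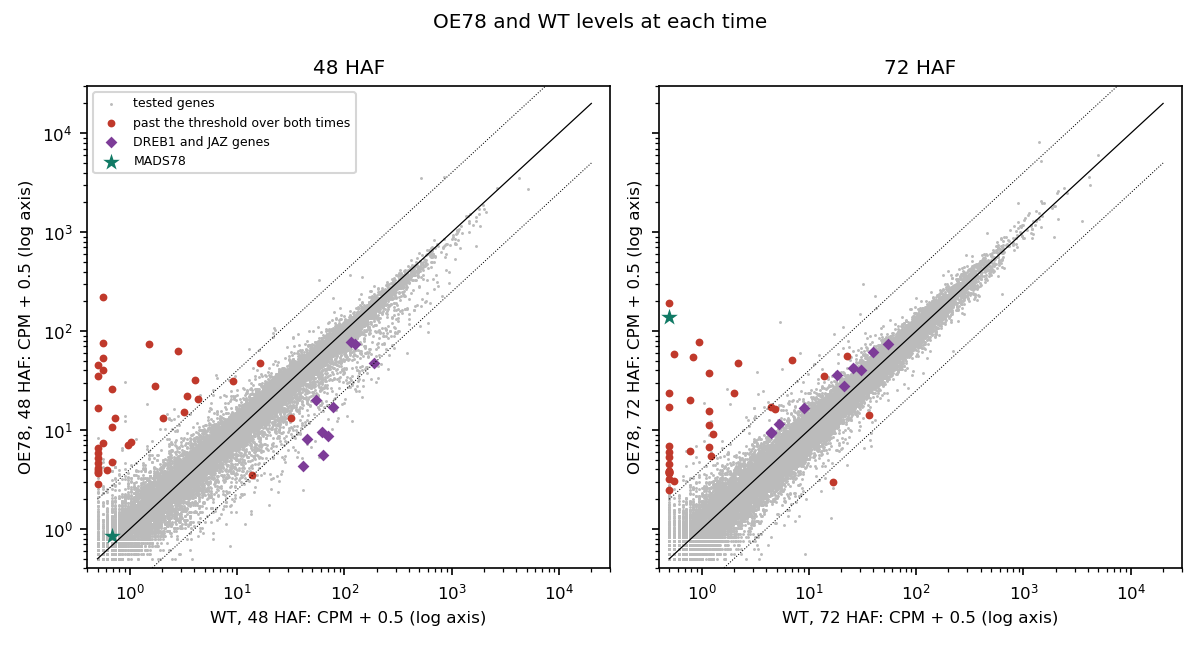
Level in OE78 (vertical) against level in WT (horizontal) at 48 HAF (left) and 72 HAF (right), as CPM + 0.5 on log axes, with 1 point for each tested gene. The solid line marks equal levels and the dotted lines 4-fold differences. The genes past the threshold over both times stay on the same side of the line in both panels, MADS78 is far above the line at 72 HAF alone, and DREB1 and JAZ genes lie below the line at 48 HAF and on or above it at 72 HAF.

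Apart from genes past the threshold over both times, the largest ratios at 48 HAF were of genes lower in OE78. LOC_Os02g45420 had 2.004 CPM in OE78, against 40.5 CPM in WT at 48 HAF, and 38.9 CPM in OE78, against 35.6 CPM in WT, at 72 HAF. LOC_Os01g73770 had 0.172 CPM in OE78, against 8.10 CPM in WT at 48 HAF, with 1.78 to 5.06 CPM in the other lines. LOC_Os06g44010 had 1.26 CPM in OE78, against 19.3 CPM in WT at 48 HAF, with 1.29 to 15.003 CPM in the other lines. For LOC_Os01g45914 and LOC_Os06g11200 it was WT that stood apart: LOC_Os01g45914 had 4.87 CPM in OE78, 1.92 to 7.201 CPM in the other lines and 57.2 CPM in WT at 48 HAF. At 72 HAF RAmy3D (LOC_Os08g36910), an alpha-amylase that breaks down starch, had 0.784 CPM in OE78, against 15.7 CPM in WT, with 0.442 to 2.79 CPM in the other lines. LOC_Os06g47800 had 0.0653 CPM in OE78, against 8.72 CPM in WT at 72 HAF, with 0.973 to 4.13 CPM in the other lines.

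DREB1A (LOC_Os09g35030) was among the largest, and 3 DREB1, 7 JAZ and 7 WRKY genes were then listed, after this value was seen, as a part of these larger stress-responsive families. DREB1 genes encode transcription factors induced by cold, the JAZ genes repressors that are themselves induced by jasmonate, and many WRKY genes factors induced by pathogens. DREB1A had 5.04 CPM in OE78 at 48 HAF, against 62.5 CPM in WT, and 41.5 CPM in OE78 at 72 HAF, against 25.1 CPM in WT. DREB1B (LOC_Os09g35010) had 8.99 CPM in OE78, against 61.7 CPM in WT at 48 HAF, and 60.7 CPM in OE78, against 38.7 CPM in WT, at 72 HAF. DREB1C (LOC_Os06g03670) had 3.84 CPM in OE78, against 41.0 CPM in WT at 48 HAF, and 27.6 CPM in OE78, against 20.7 CPM in WT, at 72 HAF. The 3 listed genes were thus lower in OE78 at 48 HAF and higher at 72 HAF, and at 48 HAF OE78 was the lowest and WT the highest of the 5 genotypes.

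The 7 listed JAZ genes all stood lower in OE78 at 48 HAF (median log2 ratio -2.002) and higher at 72 HAF (0.98), beside medians of 0 and -0.003 over all tested genes. JAZ9 had 8.30 CPM in OE78, against 69.1 CPM in WT at 48 HAF, and 10.9 CPM in OE78, against 4.78 CPM in WT, at 72 HAF. JAZ10 (LOC_Os03g08330) had 46.7 CPM in OE78, against 188 CPM in WT at 48 HAF, and 35.6 CPM in OE78, against 17.8 CPM in WT, at 72 HAF. WT was the highest of the 5 genotypes at 48 HAF in all 7, and OE78 the lowest in 4, beside 4616 and 4853 of the 25354 tested genes. The 7 listed WRKY genes were lower in OE78 at 48 HAF as well (median log2 ratio -1.57), with OE78 the lowest in 6, and had a median of -0.07 at 72 HAF. WRKY71 (LOC_Os02g08440) had 21.2 CPM in OE78, against 145 CPM in WT at 48 HAF, and 18.1 CPM in OE78, against 15.4 CPM in WT, at 72 HAF. Over both times none of the 17 genes of these 3 lists passed against WT, and none passed the test of the time change with all libraries. At 72 HAF OE79 stood above OE78 for all 3 DREB1 genes, at 40.4 to 75.5 CPM. Summed levels of the listed JAZ genes at 72 HAF were 243 CPM in OE79, 195 CPM in OE78 and 124 CPM in WT. Those of the listed WRKY genes were 487, 239 and 228 CPM in the same order, so OE78 was not the line furthest above WT.

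**Figure D4:**
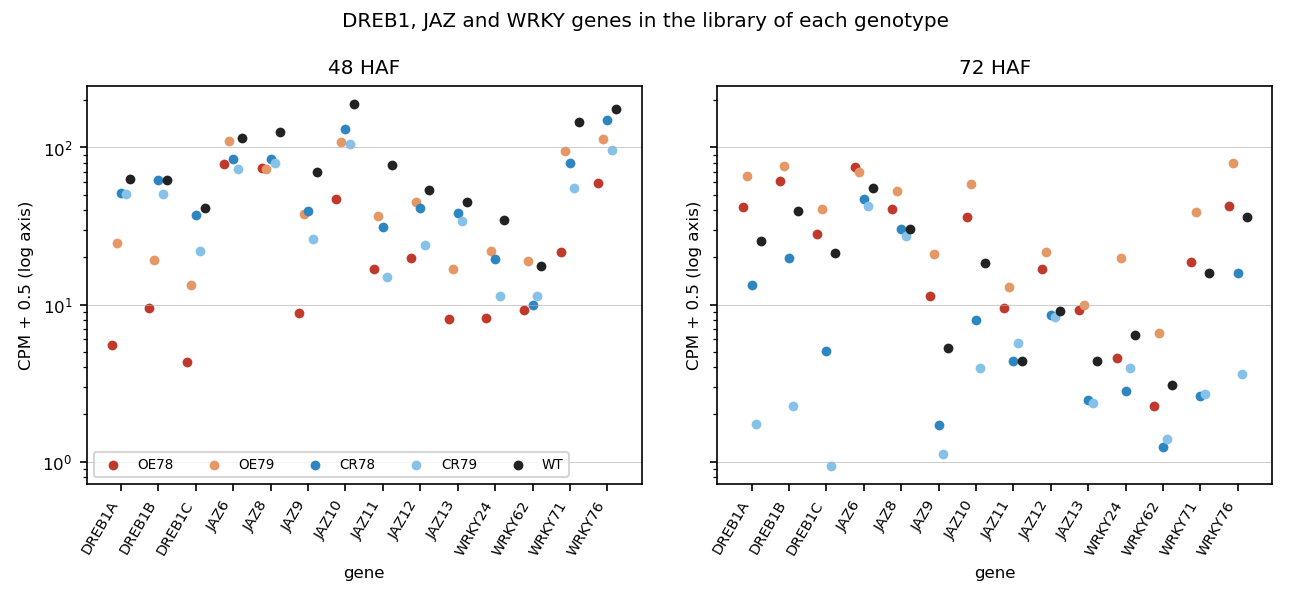
Level of the DREB1, JAZ and WRKY genes with a checked name at 48 HAF (left) and 72 HAF (right), as CPM + 0.5 on a log axis, with 1 point for each genotype. At 48 HAF OE78 is lowest and WT highest in most columns, whereas at 72 HAF OE78 lies above WT for the listed DREB1 and JAZ genes.

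Heat shock genes had a like contrast between the times. Of 8 genes, 6 were lower in OE78 than in WT at 48 HAF (median log2 ratio -0.80) and all 8 were higher at 72 HAF (0.86), and none was past the threshold in any test with all libraries. HSFA2C (LOC_Os10g28340), a heat stress transcription factor, had 25.02 CPM in OE78, against 58.8 CPM in WT at 48 HAF, and 94.9 CPM in OE78, against 32.6 CPM in WT, at 72 HAF. CR78 at 48 HAF exceeded both genotypes with 253 CPM. The summed level of the 8 genes was 85.8 CPM in OE78, against 158 CPM in WT at 48 HAF, 209 CPM in OE78, against 91.0 CPM in WT, at 72 HAF, and 721 CPM in CR78 at 48 HAF. Photosynthesis genes, which mark the green pericarp, also changed sides: all 10 were lower in OE78 at 48 HAF (median log2 ratio -0.19) and all 10 higher at 72 HAF (0.34), with summed levels of 5350 CPM in OE78, against 6442 CPM in WT, at 48 HAF and 12464 CPM in OE78, against 10037 CPM in WT, at 72 HAF. OE78 was the lowest of the 5 genotypes at 48 HAF in 7 of these 10 genes. At 72 HAF it was the highest in 3, and WT was the lowest in 8. Over all 25354 tested genes these counts were 4853, 4068 and 4554. Summed levels at 72 HAF were 11105 CPM in OE79, 12924 CPM in CR78 and 11299 CPM in CR79, all above WT. The part of tissue share or of sampling in the single-time values was not tested.

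The other lists of seed and growth genes held no gene past the threshold in OE78 against WT, beside 0.142% of all genes, and their medians over both times mostly lay close to that of all tested genes, -0.005. Against the other lines 1 listed gene passed, LOC_Os02g12310 of the endosperm transcription factors, described above. DESeq2 called it against WT too, the 1 listed gene that it called.

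Starch synthesis genes had a median log2 fold change of -0.03 over 26 genes, 11 of them above 0. At 48 HAF 9 were higher and 17 lower in OE78, and at 72 HAF 15 were higher and 11 lower. Wx (LOC_Os06g04200), which makes the amylose of starch grains, was the 1 starch gene with OE78 lowest of the 5 genotypes at 72 HAF, while OE78 was highest in 7. It had 36.8 CPM in OE78 there, against 77.4 CPM in OE79, 652 CPM in CR78, 533 CPM in CR79 and 115 CPM in WT (edgeR log2 fold change -1.58, SE 0.692, adjusted p = 0.999), and ISA1 (LOC_Os08g40930), a debranching enzyme, had 17.3 and 73.9 CPM in OE78, against 30.5 and 104 CPM in WT. SSI (LOC_Os06g06560), a soluble starch synthase, had 256 and 398 CPM in OE78, against 291 and 352 CPM in WT. Of the 7 endosperm transcription factors 2 were above 0 and 5 below, and none passed. LOC_Os07g08420 had 4.75 and 16.1 CPM in OE78, against 1.17 and 2.56 CPM in WT (edgeR log2 fold change 2.37, SE 0.535, adjusted p = 0.353). At 72 HAF it had 18.8 CPM in CR78 and 20.8 CPM in CR79, both above OE78, and 3.33 CPM in OE79. At 48 HAF CR79 was above OE78 for it, and CR78 and OE79 were below. LOC_Os02g15350 had 4.64 and 33.2 CPM in OE78, against 0.0587 and 18.5 CPM in WT. It was higher still in CR78, at 4.78 and 109.5 CPM, and in CR79, at 6.59 and 77.1 CPM. OE79 had 0.291 and 17.9 CPM of it. NF-YB1 (LOC_Os02g49410) had 3.27 CPM in OE78, against 4.61 CPM in WT at 72 HAF. GluB2 (LOC_Os02g15150) and GluB4 (LOC_Os02g16830), glutelin storage protein genes, had 0.522 and 0.588 CPM in OE78 at 72 HAF and no read in WT, too few to compare, and glutelin genes are close copies whose reads can be split.

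No sugar transporter or sucrose cleavage gene was past the threshold. SWEET11 (LOC_Os08g42350), a sucrose exporter that feeds the developing grain, had 415 and 1504 CPM in OE78, against 368 and 1100 CPM in WT (edgeR log2 fold change 0.32, SE 0.160, adjusted p = 0.999). SWEET15 (LOC_Os02g30910), of the same family, had 32.1 and 66.4 CPM in OE78, against 41.0 and 20.2 CPM in WT. The other lines had 14.7 to 29.3 CPM of SWEET15 at 48 HAF and 35.5 to 45.2 CPM at 72 HAF. WT was thus the highest genotype at 48 HAF and the lowest at 72 HAF. Of 8 sucrose cleavage genes 4 were lower in OE78 at 48 HAF (median log2 ratio 0.06) and 7 at 72 HAF (-0.36), where SUS3 (LOC_Os07g42490), a sucrose synthase, had 953 CPM in OE78, against 1220 CPM in WT.

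DNA replication and cell cycle genes leaned the other way, with 13 of 15 above 0 and a median log2 fold change of 0.16, none past the threshold. PCNA (LOC_Os02g56130), a clamp that holds DNA polymerase on its template, had 223 and 125 CPM in OE78, against 188 and 103 CPM in WT (edgeR log2 fold change 0.26, SE 0.116, adjusted p = 0.999). At 48 HAF 9 of the 15 were higher in OE78, and at 72 HAF 14. The type II MADS genes known from flowers and seeds had 17 of 20 above 0 (median 0.12), with 7 of 20 higher in OE78 at 48 HAF (median log2 ratio -0.05) and 18 at 72 HAF (0.30). MADS8 (LOC_Os09g32948) had 1063 and 1124 CPM in OE78, against 1127 and 953 CPM in WT, and MADS7 (LOC_Os08g41950), its close relative, had 941 and 1039 CPM in OE78, against 1016 and 743 CPM in WT. MADS29 (LOC_Os02g07430), a regulator of maternal tissue breakdown in the rice seed, had 115 and 157 CPM in OE78, against 131 and 112 CPM in WT. The 3 other type I MADS genes that were listed had log2 fold changes of -0.23 to 1.06.

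Cell wall synthases stood slightly lower in OE78 than in WT, with 9 of 10 below 0 and a median log2 fold change of -0.19. Against the mean of the other 3 lines their median was -0.038. CesA2 (LOC_Os03g59340), a cellulose synthase subunit, had 111 and 136 CPM in OE78, against 151 and 181 CPM in WT (edgeR log2 fold change -0.43, SE 0.150, adjusted p = 0.864). CesA6 (LOC_Os07g14850) had 166 CPM in OE78, against 383 CPM in WT at 48 HAF, and 262 CPM in OE78, against 223 CPM in WT, at 72 HAF. Of the expansins, which loosen walls, EXPA2 (LOC_Os01g60770) had 74.5 and 73.1 CPM in OE78, against 61.0 and 36.5 CPM in WT, with an edgeR adjusted p of 0.999. Argonaute genes, whose proteins carry small RNAs, had 9 of 12 below 0 against WT (median -0.14). Their median against the mean of the other 3 lines was 0.008. AGO18 (LOC_Os07g28850) had 107 and 88.5 CPM in OE78, against 142 and 115 CPM in WT (edgeR log2 fold change -0.39, SE 0.134, adjusted p = 0.836).

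ROS1c (LOC_Os05g37350), a DNA demethylase, came nearest to the threshold among the named chromatin genes. It had 53.6 and 40.8 CPM in OE78, against 68.7 and 69.96 CPM in WT (edgeR log2 fold change -0.57, SE 0.144, adjusted p = 0.511). The other lines had 31.7 to 57.7 CPM, so WT was the highest genotype at both times. Chromatin genes as a list had a median of 0.003, with 7 of 13 above 0, and EZ1 (LOC_Os03g19480), a Polycomb histone methyltransferase, had 34.8 and 34.1 CPM in OE78, against 33.4 and 37.0 CPM in WT.

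Among hormone genes, TAA1 (LOC_Os01g07500), an auxin synthesis enzyme, had 23.6 and 26.4 CPM in OE78, against 32.8 and 40.01 CPM in WT (edgeR log2 fold change -0.53, SE 0.160, adjusted p = 0.707). Of the 8 abscisic acid genes 6 were below 0 (median -0.25). NCED3 (LOC_Os03g44380), which makes an abscisic acid precursor, had 15.5 CPM in OE78, against 44.3 CPM in WT at 48 HAF, and 6.27 CPM in OE78, against 8.50 CPM in WT, at 72 HAF. ABA8ox1 (LOC_Os02g47470), which breaks the hormone down, had 40.9 CPM in OE78, against 104 CPM in WT at 48 HAF, and 68.1 CPM in OE78, against 50.7 CPM in WT, at 72 HAF. CKX11 (LOC_Os08g35860), a cytokinin-degrading enzyme, had 122 and 118 CPM in OE78, against 101 and 96.5 CPM in WT (edgeR adjusted p = 0.999). SLR1 (LOC_Os03g49990), the DELLA repressor of gibberellin responses, differed by a log2 fold change of 0.002, and the 13 gibberellin genes had a median of -0.06.

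No marker of another tissue was past the threshold. OSH1 (LOC_Os03g51690), a shoot meristem gene of the embryo, had 23.4 and 6.53 CPM in OE78, against 11.98 and 8.28 CPM in WT. GAMYB (LOC_Os01g59660), expressed in anthers and aleurone, had 45.5 and 37.3 CPM in OE78, against 48.6 and 37.1 CPM in WT, and the tapetum regulator TDR (LOC_Os02g02820) had no read in either. The 6 grain size genes had a median of 0.12, with 3 higher in OE78 at 48 HAF (median log2 ratio -0.14) and 6 at 72 HAF (0.35).

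**Figure D5:**
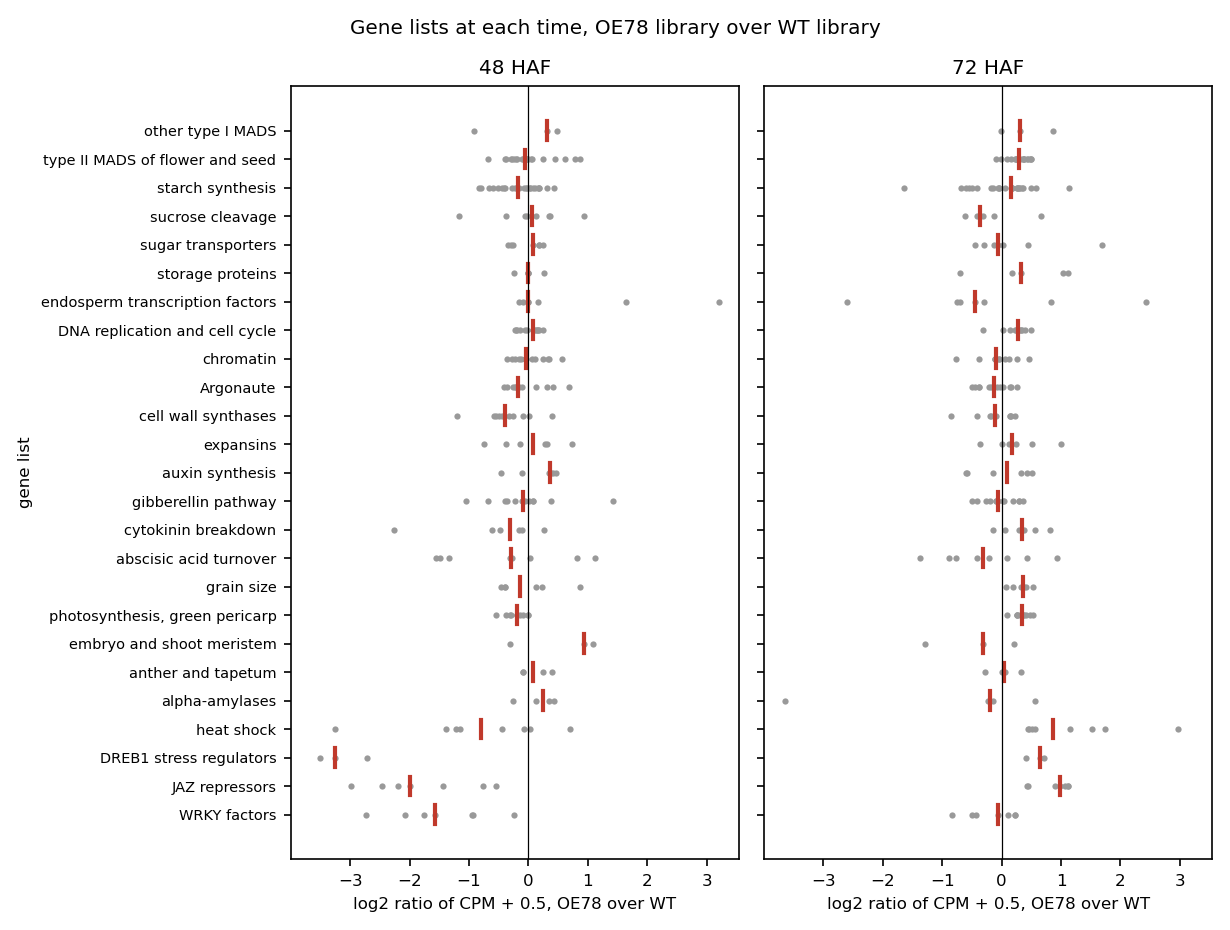
Log2 ratio of CPM + 0.5 in the OE78 library over the WT library for each gene of 25 lists at 48 HAF (left) and 72 HAF (right), with grey points for genes, red bars for list medians and a line at 0 for equal levels. The DREB1, JAZ, WRKY and heat shock lists lie left of 0 at 48 HAF, the DREB1, JAZ and heat shock lists lie right of it at 72 HAF, and most other lists lie near 0.

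The overall passage from 48 to 72 HAF in OE78 was measured on genes called in the other lines alone, with a change of at least 2-fold over time (log2 fold change of 1) in OE79, CR78 and CR79, a set defined after the data were seen. The 1074 rising genes, 4.24% of those tested, had a median log2 ratio of 72 over 48 HAF of 1.49 in OE78 and 1.58 in WT, beside 1.45 for OE79, 2.39 for CR78 and 2.09 for CR79. Libraries of OE79, CR78 and CR79 chose these genes, so their medians are not directly comparable with those of OE78 and WT. The 583 falling genes, 2.30% of those tested, had a median of -1.19 in OE78 and -1.28 in WT. At 72 HAF the rising genes had a median log2 ratio of OE78 over WT of -0.09 and the falling genes of 0.12, against -0.002 for the rest. Of the 28 genes lower by 4-fold in OE78 at 72 HAF, 12 belong to the rising genes.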

How the data were processed

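The files hold counts, whole numbers of reads per gene for 55801 features in each library, as deposited by the authors with no normalization. TopHat2 and HTSeq are named without version per the submitters' processing notes, and no source used here gives the build, annotation or strand setting, so reads of close copies and of overlapping or antisense genes cannot be resolved. Genes were kept with edgeR's filter at a minimum count of 10 (25354 genes) and scaled by TMM. CPM are counts divided by the scaled total. Tests were two-sided, by edgeR 4.0.16 in R 4.3.3 (quasi-likelihood), from an additive model of genotype plus time fitted to all 10 libraries (4 residual degrees of freedom, biological coefficient of variation 20.7%) and, for the time change of OE78, with a further term for it (3 residual degrees of freedom). The additive fit takes the 2 times of a line as its replicates. DESeq2 1.42.0 was an alternative. Scripts were tested on simulated data. Single-time log2 ratios used CPM + 0.5. Ratios to a group with no read take 3 counts for it.

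Gene lists pair names with loci as published for rice. Of 240 pairs, 152 were supported by RefSeq gene order (assembly ASM3414082v1, used for gene order alone, window 2 Mb), 83 names are not in that table, 3 were dropped as contradicted, and 2 identifiers are not in the files. Counts use 235 pairs, while only checked names, MADS78 and MADS79 are printed. The lists, the comparison and the tests were chosen with earlier results of these data known, and the DREB1, JAZ and WRKY lists after single-time values were seen. Named genes are all genes past the threshold against WT, up to 6 per direction with the smallest p in the other tests and with the largest ratio at each time, and from each list up to 3 with the smallest p and the most abundant. A few further members are named to describe a list, as are all genes lower against the other lines.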

Additional observations from a re-analysis of the deposited data

How the results depend on the processing

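The 36 genes of OE78 against WT kept their direction under every alternative run, and all 36 were called with RLE size factors (36 genes), without the filter on low counts (106), with DESeq2 (131) and in a fit of the 4 OE78 and WT libraries alone (70, with 1 residual degree of freedom). A robust fit called 43 and lost 4 of the 36. Without the time term 3 genes passed. Leaving out 1 library gave 5 to 36 genes. Against the other 3 lines, 27 genes became 25 with RLE size factors, 113 without the filter and 113 with DESeq2, which lost 7 of the 27, and 3 to 23 when 1 library was left out. In that contrast LOC_Os03g40440 and LOC_Os04g49720 changed sign without OE78 at 72 HAF, and ranged over the runs with 1 library left out from -5.739 to 0.147 and from -4.396 to 1.366. The test of the time change went from 0 genes to 1 without the filter, 2 with DESeq2 and 0 to 13 when 1 library was left out, and could not be run without either OE78 library. Where an arm was left with 1 library, it was assumed to vary like the others. The cause of these shifts was not tested.

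Single-time counts at 48 HAF were 46 higher and 110 lower at 10 CPM or more, and 31 and 24 at 8-fold. At 72 HAF they were 44 and 11 at 10 CPM or more, and 30 and 5 at 8-fold. The fit is paired by time, since time is one of its terms, and with 1 library per genotype and time no further replicate block could be fitted. Genes with a few reads, such as those with none in WT, carry the widest errors, and their fitted fold changes are not used as bounds.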
